A study of Drosophila melanogaster with 47 samples.

Results

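The 8 genes described here are the EGF receptor of Drosophila melanogaster (Egfr), its activating ligands spitz (spi), Keren (Krn) and vein (vn), the ligand-processing protease rhomboid (rho), and the pathway outputs pointed (pnt), argos (aos) and sprouty (sty). They were taken by symbol from 3 count tables of RNA from adult female guts. All 8 were found in each table, among 11128 genes for sorted progenitors, 10635 for whole guts and 10406 for guts carrying Actin-Gal4, and all 8 passed the filter on low counts in every fit.

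The series compared mated with unmated females, and of its 47 samples 32 were analysed here, in 8 groups of 4. In mated groups females were kept for 48 h with as many males, and in unmated groups they were kept apart from males from eclosion. The sorted progenitors are esg+ cells taken by FACS from 100 to 150 esg-Gal4 guts per library, in a mated and an unmated group. The whole guts carry esg-Gal4 too, in a mated and an unmated group of 15 guts per library. The 4 remaining groups are guts of females of the genotype Actin-Gal4/ EcR RNAi, mated and unmated, and of Actin-Gal4 controls, mated and unmated, which spent 5 days at 29 °C before the mating period at 25 °C. The escargot (esg) gene marks intestinal stem cells and enteroblasts, Actin-Gal4 is expressed in all tissues, and a whole gut library mixes enterocytes, enteroendocrine cells, progenitors, visceral muscle and trachea. Each library is a pool of guts, so the p-values measure the spread between pools, and fewer cells of a type and less RNA per cell cannot be told apart.

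In this pathway Spi and Krn are made as membrane-bound precursors that rhomboid proteases cut after transport by the chaperone Star, whereas Vn is secreted in active form. The receptor signals through Ras and MAP kinase to the ETS factor Pnt, and aos and sty are induced targets that feed back, since Argos captures Spi outside the cell and Sprouty dampens signalling inside it. In the adult midgut the pathway is known for sustaining stem cell division, with Vn supplied by visceral muscle and Spi and Krn by the epithelium.

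In the BDGP6.54 annotation Egfr (FBgn0003731) lies on the plus strand of 2R at 21522420 to 21559977. The ligand genes lie on the minus strand, spi (FBgn0005672) on 2L at 19567900 to 19577315, Krn (FBgn0052179) on 3L at 17649562 to 17654280 and vn (FBgn0003984) on 3L at 5813338 to 5845664. The protease gene rho (FBgn0004635) lies on the plus strand of 3L at 1463811 to 1468944. The target genes lie on the minus strand, pnt (FBgn0003118) on 3R at 23290231 to 23346167, aos (FBgn0004569) on 3L at 16470386 to 16483650 and sty (FBgn0014388) on 3L at 3401153 to 3424935. Of the 8 genes, Krn shares exon sequence with a neighbour on its own strand, 289 bases or 21.3% of its exons with Ndfip, so part of its counts is uncertain. The other 7 share no exon bases with another annotated gene.

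Library totals ran from 31362803 to 44260161 counts in progenitors, from 13718418 to 24538084 in whole guts and from 19383292 to 29820841 in Actin-Gal4 guts. Levels are given as CPM, the count of a gene per 1000000 counts of the library after TMM scaling. The summed level of 10 progenitor markers was 3547 to 4815 CPM in mated and 3006 to 3612 CPM in unmated progenitors, against 83.9 to 142 CPM in mated and 74.8 to 149 CPM in unmated whole guts. The 9 enterocyte markers summed to 2379 to 3469 CPM in progenitors and 25376 to 60337 CPM in whole guts. The 11 visceral muscle markers summed to 845 to 944 CPM in progenitors and 1491 to 2834 CPM in whole guts. Of these, 9 were lower in progenitors in both mating states, among them Mhc with 0.750 to 3.25 CPM in progenitors and 194 to 421 CPM in whole guts. The 2 higher ones were Tm1, with 788 to 895 CPM in progenitors and 423 to 523 CPM in whole guts, and how, with 35.0 to 49.4 CPM in progenitors and 9.64 to 12.1 CPM in whole guts. The 10 enteroendocrine markers summed to 143 to 457 CPM in mated and 316 to 547 CPM in unmated progenitors, against 405 to 462 CPM in mated and 443 to 534 CPM in unmated whole guts. Heat shock transcripts set the unmated progenitor libraries apart, since 11 genes summed to 8763, 5216, 6385 and 7694 CPM in mated libraries 1 to 4 and to 76640, 41634, 19678 and 56559 CPM in unmated libraries 1 to 4. The progenitor results are therefore also given without unmated libraries 1 and 4, the highest. Unmated libraries 2 and 3 still lay above every mated library, so this step lessens the heat shock difference but does not remove it. EcR, the target of the RNAi, was not lower in the libraries labelled EcR RNAi. It averaged 9.57 ± 1.15 CPM in mated and 12.9 ± 1.28 CPM in unmated libraries so labelled, against 8.28 ± 0.943 CPM in mated and 8.07 ± 1.04 CPM in unmated controls (SD, n = 4 each). In unmated guts EcR was higher under that label (log2 fold change 0.67 ± 0.11, SE, with an adjusted p = 0.00125 by the edgeR quasi-likelihood test with Benjamini-Hochberg adjustment, as for every adjusted p below).

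**Figure D1:**
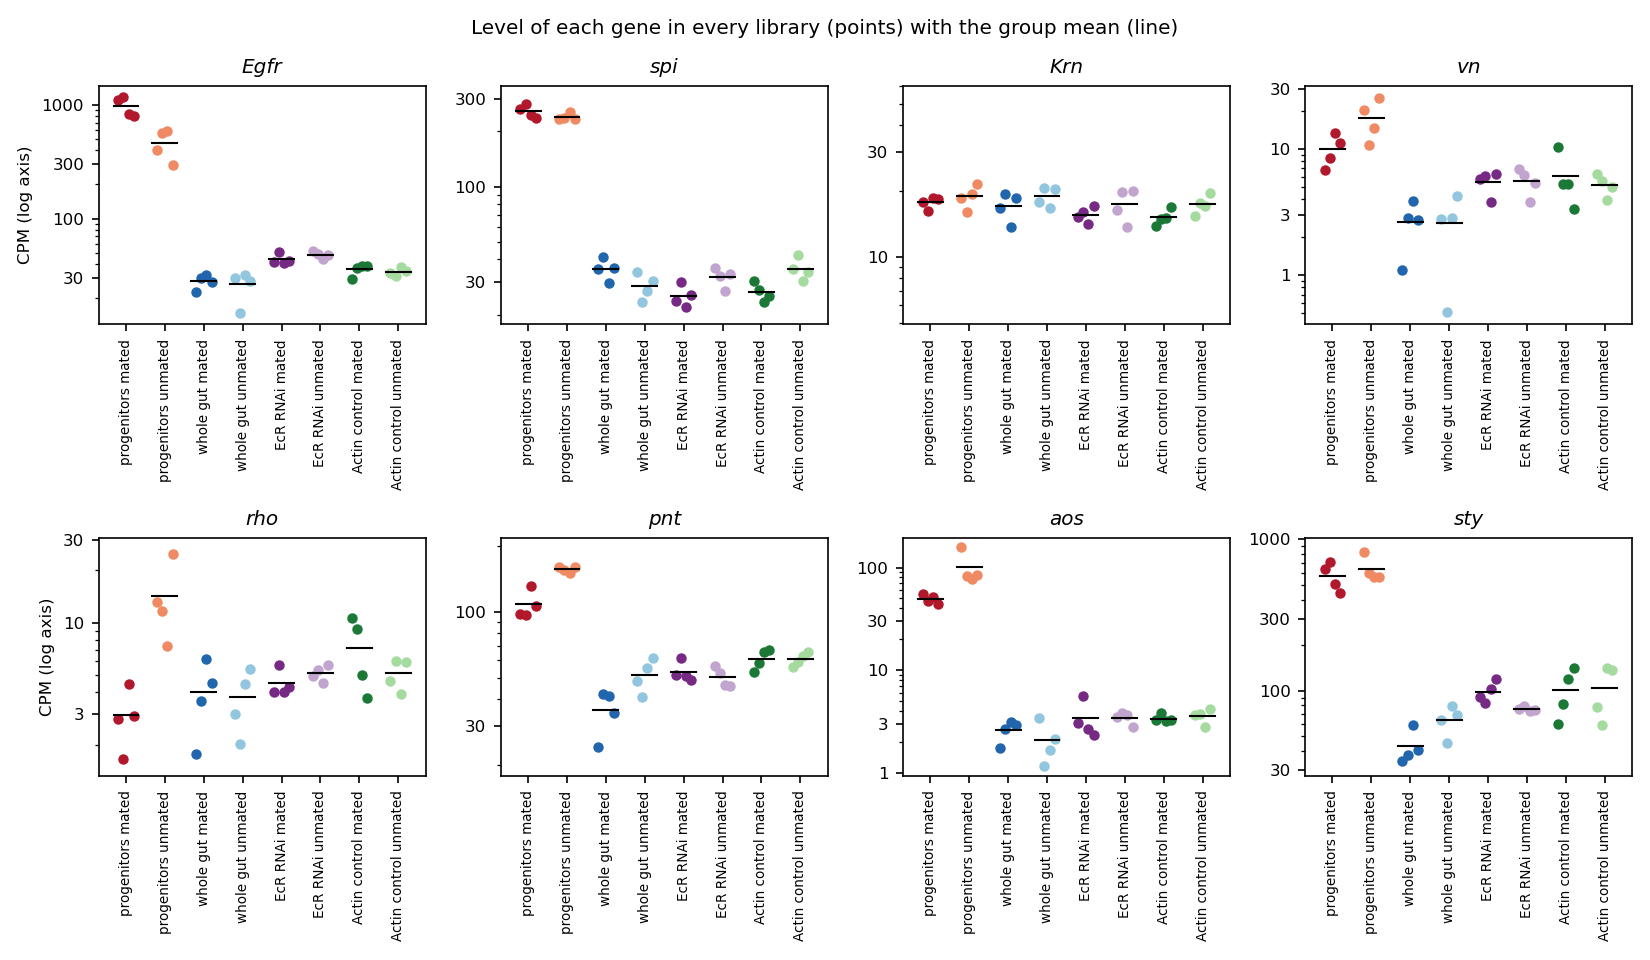
CPM of each of the 8 genes in every library on log axes, scaled within each of the 3 tables; points are the 4 libraries of a group and the line is their mean. For Egfr, spi, pnt, aos and sty all 8 progenitor libraries lie above all other libraries, whereas Krn stays between 13.7 and 21.6 CPM in all 32 libraries.

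Sorted progenitors carried far more receptor, spi, aos and sty transcript than whole guts. Krn was somewhat lower with both tables scaled jointly, but not with each table scaled alone. Levels between genes were compared per kb of exon. In mated progenitors the receptor led the genes with 142 ± 27.0 CPM per kb, next to spi with 142 ± 11.5 and sty with 106 ± 22.0 CPM per kb (SD, n = 4), and the ranges of these 3 neighbours in the order overlapped. In unmated progenitors spi and sty led with 133 ± 5.52 and 118 ± 22.8 CPM per kb, whose ranges overlapped, followed by Egfr with 67.3 ± 20.3 and aos with 35.6 ± 13.4 CPM per kb, whose ranges overlapped too. The lowest were rho, at 0.986 ± 0.386 CPM per kb in mated and 4.74 ± 2.46 CPM per kb in unmated progenitors, and vn, at 1.89 ± 0.554 CPM per kb in mated and 3.38 ± 1.21 CPM per kb in unmated ones. In whole guts the order was another one, with spi first at 19.6 ± 2.56 CPM per kb in mated and 15.8 ± 2.52 CPM per kb in unmated guts, and vn last at 0.502 ± 0.218 CPM per kb in mated and 0.494 ± 0.294 CPM per kb in unmated guts. In the 4 Actin-Gal4 groups spi and sty led with 13.9 to 19.6 CPM per kb, Egfr lay at 4.91 to 6.87 CPM per kb, and rho, aos and vn filled the last 3 places with 0.990 to 2.38 CPM per kb.

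**Figure D2:**
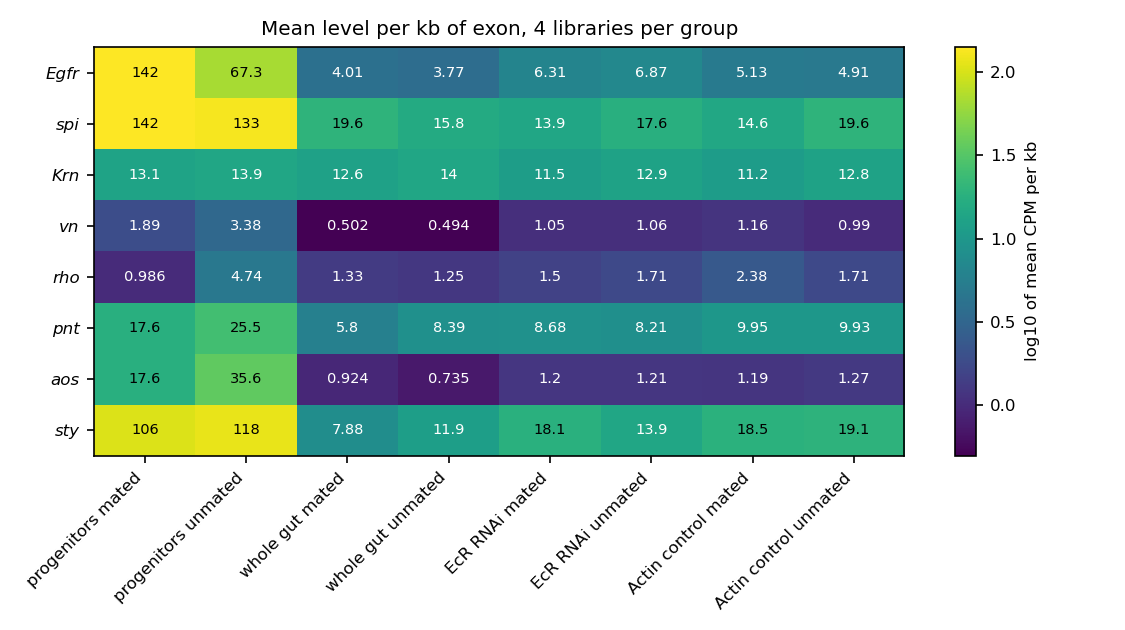
Mean CPM per kb of exon of the 8 genes (rows) in the 8 groups (columns, 4 libraries each), coloured on a log10 scale with the mean printed in each cell. Egfr, spi and sty reach 67.3 to 142 CPM per kb in both progenitor groups, and no gene exceeds 19.6 CPM per kb in any other group.

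The levels of progenitors and whole guts were then tested in a joint fit of 9448 genes found in both tables. In the mated groups 6 of the 8 genes were higher in progenitors and 2 lower, where 82.9% of all genes tested were called, 43.2% higher and 39.7% lower, so being called says little about a gene here. The member median was 1.86 on the log2 scale, against 0.10 over all genes tested. Egfr was 24.5-fold higher in mated progenitors than in mated whole guts (log2 fold change 4.62 ± 0.29, SE, adjusted p = 4.35e-10), at 822 ± 155 against 33.5 ± 5.00 CPM scaled jointly. The feedback inhibitors were next, aos by 3.73 and sty by 3.22, and spi was higher by 2.33, vn by 1.39 and pnt by 1.07 on the log2 scale. The groups did not overlap for any of these 6 genes in CPM scaled within each table. The share of all genes without overlap was not counted here, so this too says little about the 6. For Krn the fold change was -0.48 ± 0.12 (adjusted p = 0.00121), at 14.8 ± 0.934 against 20.5 ± 3.09 CPM scaled jointly, with no overlap on that scale. Scaling within each table, which raises every gene by 0.53 on the log2 scale in mated progenitors relative to mated whole guts, puts Krn at 17.7 ± 1.07 CPM in mated progenitors and 17.1 ± 2.53 CPM in mated whole guts. For rho the fold change was -0.96 ± 0.43 (adjusted p = 0.0496), and the call was lost in 10 of 16 fits that left out a library, with -0.65 (adjusted p = 0.192) without library 3 of mated whole guts. Scaled jointly, rho was at 2.46 ± 0.947 CPM in mated progenitors and 4.81 ± 2.25 CPM in mated whole guts. Scaled within each table, it was at 2.96 ± 1.16 CPM in mated progenitors and 4.00 ± 1.86 CPM in mated whole guts. The groups overlapped for rho on both scales.

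In the unmated groups, where 81% of genes were called, 42.2% higher and 38.8% lower, 7 of the 8 genes were higher in progenitors and Krn was lower, with a median of 2.34 against 0.09 over all genes. The largest difference was that of aos, 5.04 ± 0.31 on the log2 scale (adjusted p = 6.09e-10), followed by Egfr at 3.59, sty at 2.75, spi at 2.50, vn at 2.17, rho at 1.34 and pnt at 1.03. Krn was at -0.57 ± 0.12 (adjusted p = 0.000293) in the joint fit, at 15.5 ± 1.72 CPM in unmated progenitors and 23.0 ± 2.17 CPM in unmated whole guts scaled jointly. Scaling within each table raises every gene by 0.57 on the log2 scale in unmated progenitors relative to unmated whole guts. On that scale Krn was at 18.9 ± 2.28 CPM in unmated progenitors and 18.9 ± 1.90 CPM in unmated whole guts, and the groups overlapped. Without unmated progenitor libraries 1 and 4 the difference of rho was 0.78 (adjusted p = 0.137), and the other 7 genes stayed called in their direction. Table, sort and any difference of sequencing run cannot be told apart in these comparisons. Of 25 other pathway genes tested, 17 were higher and 2 lower in mated progenitors than in mated whole guts, and 18 were higher and 3 lower in unmated progenitors. All 6 listed inhibitors were among the higher ones in both comparisons, with echinoid (ed), a cell adhesion protein that antagonises the receptor, at 3.80 in mated and 3.83 in unmated progenitors on the log2 scale, and the ubiquitin ligase gene Cbl at 2.93 in mated and 2.82 in unmated ones. Star (S), the chaperone of the ligand precursors, was higher by 2.01 in mated and 2.30 in unmated progenitors, and gurken (grk), the ligand known from the germline, was at -3.74 in mated and -3.64 in unmated progenitors. Ovary markers, of which 7 were found, summed to 104 to 1006 CPM in mated and 120 to 611 CPM in unmated whole guts. In progenitors they summed to 3.01 to 16.4 CPM in mated and 8.70 to 27.2 CPM in unmated libraries. The part of ovary RNA in the level of grk was not tested. The heat shock genes moved with these comparisons, with 9 of 10 tested higher and 1 lower in mated progenitors and 10 of 10 higher in unmated ones, and their part was not tested.

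With mating, sorted progenitors had more receptor transcript and less of rho, aos and pnt, while spi, Krn and sty did not pass the test. A lower level of vn passed it narrowly, and this call was lost in 5 of 8 fits that left out a library. In this comparison 5 of the 8 genes were called, 1 higher and 4 lower, where 40.2% of all genes tested were called, 19.1% higher and 21.1% lower. The member median was -0.34 on the log2 scale, against 0.02 over all genes. For 4 of the 8 genes the mated and unmated libraries did not overlap in CPM, where 41.3% of all genes tested did not.

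The receptor had 1113, 1182, 844 and 811 CPM in mated progenitors 1 to 4, against 403, 572, 595 and 299 CPM in unmated progenitors 1 to 4. Every mated library was above every unmated one, with 299 CPM in unmated library 4 the lowest. Egfr was 2.11-fold higher in mated progenitors (log2 fold change 1.08 ± 0.23, adjusted p = 0.00916), and 0.75 ± 0.17 (adjusted p = 0.0326) without unmated libraries 1 and 4.

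The protease gene rho, whose product starts ligand release, had 2.79, 1.65, 4.47 and 2.91 CPM in mated progenitors, against 13.1, 11.7, 7.37 and 24.7 CPM in unmated ones. All 4 mated libraries were under the lowest unmated library, and the unmated ones spread the more widely, from 7.37 to 24.7 CPM. The log2 fold change was -2.26 ± 0.40 (adjusted p = 0.00551), and -1.69 ± 0.36 (adjusted p = 0.026) without unmated libraries 1 and 4. These levels rest on 55 to 167 counts of rho per mated library and 277 to 774 per unmated library.

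Among the ligands, vn, the neuregulin-like ligand, had 6.78, 8.39, 13.3 and 11.2 CPM in mated progenitors, against 20.3, 10.7, 14.6 and 25.2 CPM in unmated ones. The groups overlapped, with mated libraries 3 and 4 above unmated library 2. The fold change was -0.84 ± 0.29 (adjusted p = 0.0456). The 5 fits that lost the call were those without mated library 1 (-0.68, adjusted p = 0.099), 2 (-0.76, 0.104) or 4 (-0.89, 0.0724) or unmated library 1 (-0.76, 0.108) or 4 (-0.62, 0.116). Leaving out unmated libraries 1 and 4 together gave -0.36 (0.394). The most abundant ligand, spi, had 236 to 283 CPM in mated and 235 to 256 CPM in unmated progenitors, and Krn had 16.2 to 18.6 CPM in mated and 16.1 to 21.6 CPM in unmated ones. Neither passed the test, with adjusted p = 0.276 for spi and 0.489 for Krn.

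Of the outputs, aos had 55.7, 47.5, 51.3 and 43.7 CPM in mated progenitors, against 157, 83.0, 77.5 and 84.3 CPM in unmated ones. The mated libraries all lay below the unmated ones, and unmated library 1 stood far above the other 3 of its group. The fold change of aos was -1.02 ± 0.22 (adjusted p = 0.0102), and -0.70 ± 0.10 (adjusted p = 0.00698) without unmated libraries 1 and 4. The transcription factor gene pnt had 97.8, 96.6, 131 and 106 CPM in mated progenitors, against 160.0, 155, 149 and 159 CPM in unmated ones. It was lower in every mated library, by a log2 fold change of -0.53 ± 0.10 (adjusted p = 0.00543), and -0.50 ± 0.12 (adjusted p = 0.0379) without unmated libraries 1 and 4. The other feedback inhibitor, sty, had 635, 710.3, 510.4 and 444 CPM in mated progenitors, against 824, 604, 565 and 565 CPM in unmated ones. These groups overlapped and sty did not pass the test (adjusted p = 0.477). So of the 2 induced inhibitors aos fell with mating, and for sty no difference was detected beyond the spread between pools.

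The heat shock list moved with these results, as all 11 of its genes tested were lower in mated progenitors, with a median log2 fold change of -2.96. All 11 stayed lower without unmated libraries 1 and 4. Within the unmated group, library 3 had the lowest heat shock sum, the highest Egfr and the lowest rho and aos levels. The highest heat shock sum was in library 1, with the highest aos and sty levels. The highest rho and vn levels and the lowest Egfr level were in library 4, and the lowest vn level was in library 2. Markers of other cells moved too, read against the 19.1% of all genes called higher and 21.1% called lower. Of 10 enteroendocrine markers 5 were lower in mated progenitors and 5 were not called, of 9 enterocyte markers 4 were lower and 1 was higher, of 11 visceral muscle markers 1 was lower, and 2 of 2 tracheal markers tested were lower, summing to 34.2 to 40.0 CPM in mated and 43.1 to 76.8 CPM in unmated libraries over 4 listed genes. Of the 10 progenitor markers 3 were higher (esg, Dl and spdo) and 2 lower (Sox100B and Sox21a). Without unmated libraries 1 and 4, when fewer of all genes were called too, 1 progenitor marker was higher (esg) and 1 lower (Sox100B). No enteroendocrine or visceral muscle marker was called then. Of the enterocyte markers 3 were lower and 1 was higher, and 1 of the 2 tracheal markers was lower. Their part in the results on the 8 genes was not tested.

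**Figure D3:**
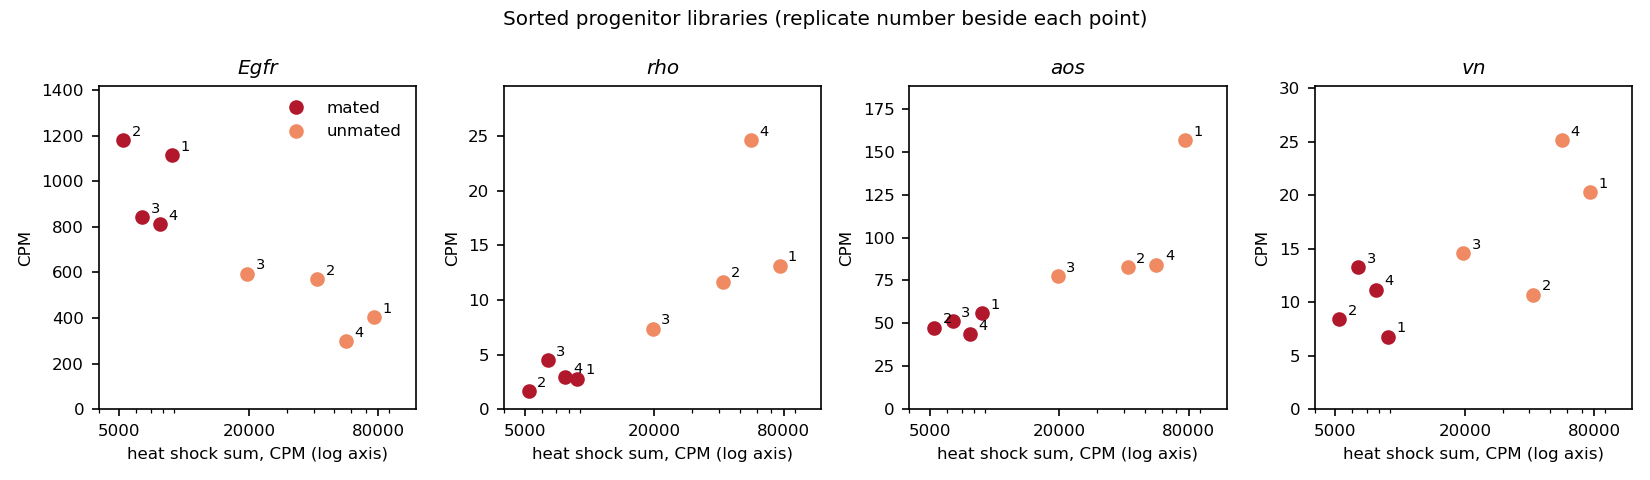
CPM of Egfr, rho, aos and vn (vertical axes) against the summed CPM of 11 heat shock genes (horizontal log axis) in the 8 sorted progenitor libraries, with the replicate number beside each point. The mated libraries lie at 5216 to 8763 CPM of heat shock transcripts and the unmated ones at 19678 to 76640 CPM, with no overlap.

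Of 25 other pathway genes tested, 3 were higher in mated progenitors, 10 were lower and 12 were not called, with a median of -0.20, where 19.1% of all genes were higher and 21.1% lower. Without unmated libraries 1 and 4 the counts were 0 higher and 5 lower, among 1302 genes called of 9117 tested, and the 5 were drk, dos, RasGAP1, Mkp3 and edl. On the side of ligand processing S was lower in mated progenitors, with 101 to 122 CPM in mated and 132 to 160.0 CPM in unmated libraries (log2 fold change -0.41, adjusted p = 0.00823), and so was rho-4, another gene of the rhomboid family (-0.33, adjusted p = 0.0253). In the cascade the adaptor genes dos (-0.71, adjusted p = 0.00409) and drk (-0.55, adjusted p = 0.00688) were lower, whereas Raf, the kinase that follows Ras, was higher with 38.8 to 40.8 CPM in mated and 26.4 to 35.8 CPM in unmated libraries (0.37, adjusted p = 0.0142). Without unmated libraries 1 and 4 drk (-0.38, adjusted p = 0.0153) and dos (-0.54, 0.0181) stayed called, whereas S (-0.30, 0.0524), rho-4 (-0.19, 0.166) and Raf (0.24, 0.0604) did not.

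Among the negative regulators Mkp3, a MAP kinase phosphatase, was lower with 76.4 to 94.5 CPM in mated and 137 to 209 CPM in unmated progenitors (-0.90, adjusted p = 0.00335). RasGAP1, which turns Ras off, was lower too (-0.72, adjusted p = 0.00494), whereas PTP-ER, a phosphatase acting on MAP kinase, was higher (0.44, adjusted p = 0.0197). Of the 6 inhibitors outside the 8 genes 3 were lower, 1 was higher and 2 were not called. Without unmated libraries 1 and 4 Mkp3 (-0.70, adjusted p = 0.00528) and RasGAP1 (-0.56, 0.0205) stayed lower, and PTP-ER was not called (0.23, 0.0844). Of the nuclear factors edl, which antagonises the repressor Yan and also Pnt, had 25.6 to 63.8 CPM in mated and 91.0 to 197 CPM in unmated progenitors (-1.75, adjusted p = 0.00565). The repressor gene cic was lower as well (-0.46, adjusted p = 0.0385), but its groups overlapped. Without those 2 libraries edl was at -1.31 (adjusted p = 0.0465) and cic at -0.30 (0.23).

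**Figure D4:**
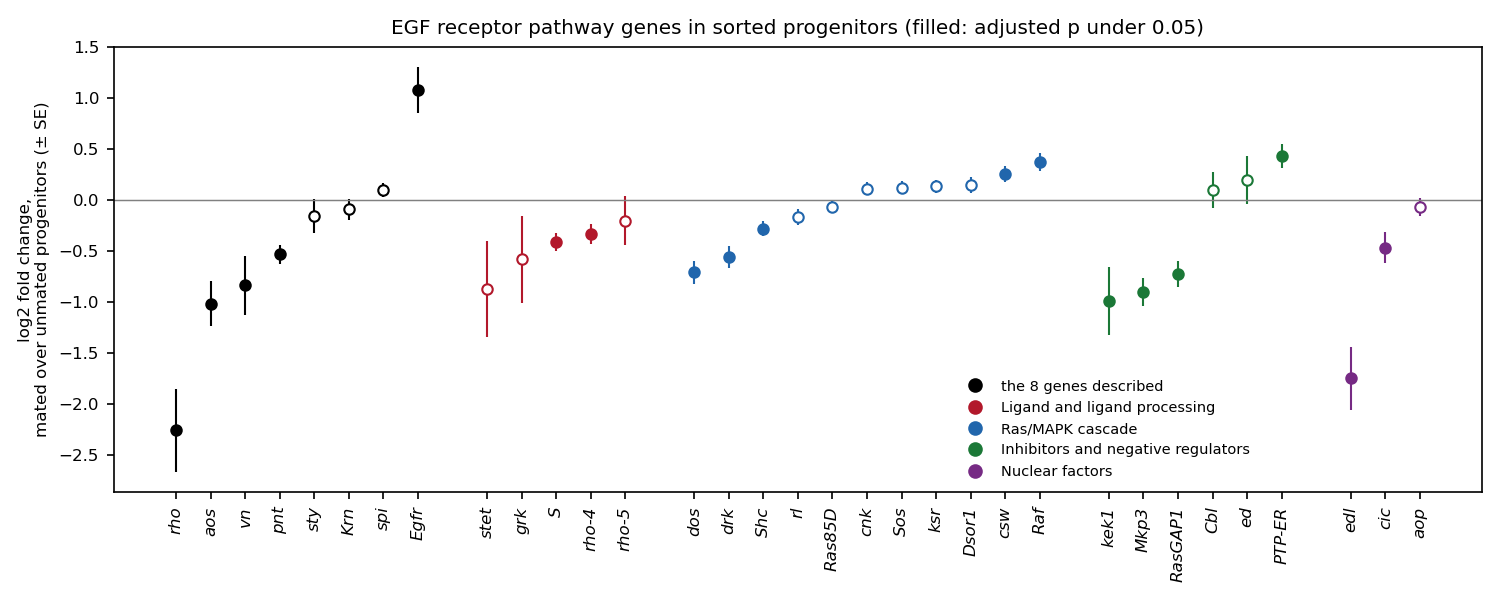
Log2 fold change of mated over unmated sorted progenitors (vertical axis, with SE) for the 8 genes (black) and 25 other pathway genes, coloured by role; filled circles have an adjusted p under 0.05. The 8 genes run from rho at -2.26 to Egfr at 1.08, and of the 25 other genes 3 filled circles lie above 0 and 10 below; without unmated libraries 1 and 4 none stays called above 0 and 5 do below.

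In whole guts none of the 8 genes was called with mating by edgeR's quasi-likelihood test, nor by DESeq2, where edgeR called 4.26% of all genes tested. The mated and unmated libraries overlapped for all 8 genes, where 11.5% of all genes tested did not overlap. At an unadjusted p under 0.05 there were 3 of them, spi, pnt and sty. Ranked by that p, spi was at 1436 of 8833 genes tested, so many other genes passed this looser threshold too. The factor gene pnt had 24.2, 42.1, 41.3 and 34.4 CPM in mated whole guts, against 48.2, 40.9, 55.0 and 61.3 CPM in unmated ones. Mated libraries 2 and 3 lay above unmated library 2, and the fold change was -0.53 ± 0.19 (adjusted p = 0.177). For sty the values were 34.2, 37.6, 59.1 and 40.4 CPM in mated and 64.1, 45.1, 79.7 and 69.0 CPM in unmated whole guts. The groups overlapped through mated library 3 and unmated library 2, with a fold change of -0.59 ± 0.21 (adjusted p = 0.182), and without mated library 3 it was -0.79 (adjusted p = 0.0391). The ligand gene spi had 35.5, 41.3, 29.9 and 35.8 CPM in mated whole guts, against 34.0, 23.5, 26.8 and 30.6 CPM in unmated ones, with a fold change of 0.31 ± 0.14 (adjusted p = 0.299).

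The other genes gave no direction in whole guts. Egfr had 22.3 to 31.5 CPM in mated and 14.6 to 31.9 CPM in unmated whole guts, Krn 13.7 to 19.4 CPM in mated and 16.8 to 20.7 CPM in unmated ones. The rarest were vn with 1.09 to 3.85 CPM in mated and 0.507 to 4.23 CPM in unmated whole guts, rho with 1.76 to 6.21 CPM in mated and 2.03 to 5.45 CPM in unmated ones, and aos with 1.72 to 3.13 CPM in mated and 1.16 to 3.38 CPM in unmated ones. These 3 genes had 7 to 129 counts per library, which limits what could be detected. Beside these values, 7 of 11 visceral muscle markers were lower in mated whole guts, with sums of 1491 to 1892 CPM against 2650 to 2834 CPM in unmated ones, and the enterocyte markers summed to 25376 to 29519 CPM in mated and 46373 to 60337 CPM in unmated whole guts, with 3 of 9 lower and 1 higher. None of the 10 progenitor markers was called, with 0 at an unadjusted p under 0.05. Over all genes tested 4.26% were called with mating in whole guts, in either direction. The part of these markers was not tested. None of 24 other pathway genes was called.

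**Figure D5:**
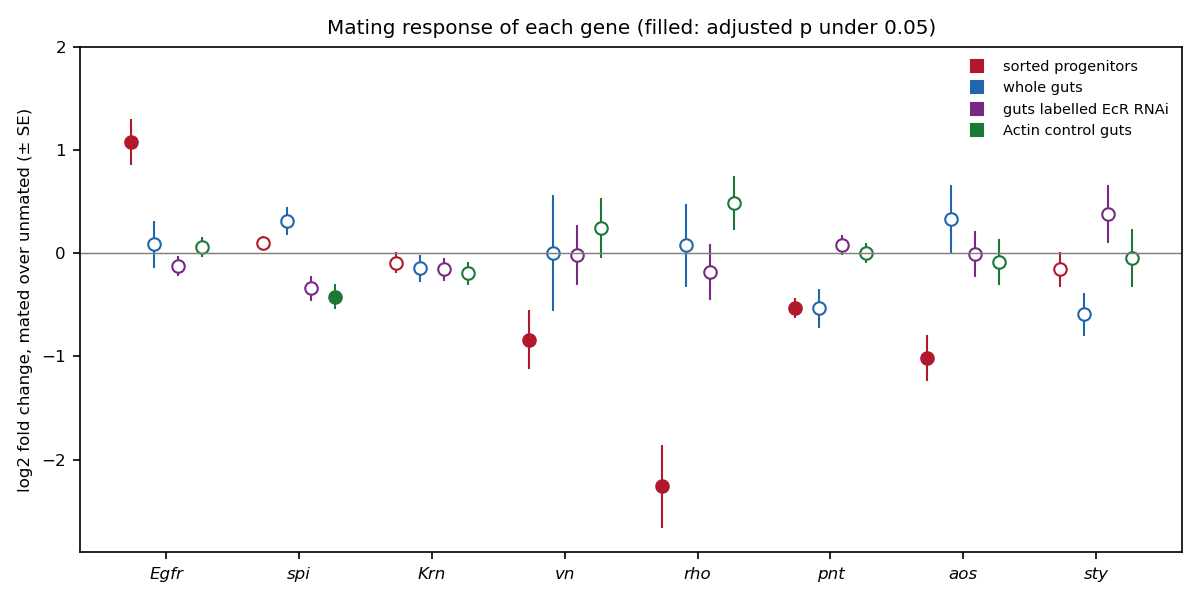
Log2 fold change of mated over unmated (vertical axis, with SE) of the 8 genes in sorted progenitors, whole guts, guts labelled EcR RNAi and Actin-Gal4 control guts; filled circles have an adjusted p under 0.05. The 6 filled circles are Egfr, vn, rho, pnt and aos in progenitors and spi in control guts.

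The difference between the mating responses of progenitors and whole guts was tested itself, and 3 of the 8 genes were called, 1 positive and 2 negative, where 21.3% of all genes were, 9.06% positive and 12.2% negative. For rho it was -2.29 ± 0.60 on the log2 scale (adjusted p = 0.0172), called in all 16 fits that left out a library. For aos it was -1.31 ± 0.41 (adjusted p = 0.0356) and for Egfr 1.03 ± 0.35 (adjusted p = 0.0489). These stayed called in 7 of 16 such fits for aos, with an adjusted p of 0.0167 to 0.0692, and in 4 of 16 for Egfr, with 0.0117 to 0.093. Without unmated progenitor libraries 1 and 4 all 3 calls were lost, with -1.73 (adjusted p = 0.101) for rho, -0.99 (0.104) for aos and 0.71 (0.217) for Egfr. The responses of pnt and vn in progenitors were not shown to differ from those in whole guts. Table, sort and any difference of sequencing run cannot be told apart here either.

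In the guts carrying Actin-Gal4, spi in controls was the 1 gene of the 8 called with mating. There it had 30.4, 27.2, 23.3 and 25.2 CPM in mated guts, against 35.7, 42.0, 30.5 and 34.1 CPM in unmated ones. The groups did not overlap, where 14.1% of all genes tested did not, and the gap between mated library 1 and unmated library 3 was narrow. The fold change was -0.42 ± 0.12 (adjusted p = 0.046), and 1 of 8 genes called compares with 6.87% of all genes tested, and 3.92% of all were lower. The call was lost in 10 of 16 fits that left out a library, with adjusted p up to 0.12 (-0.34, without unmated control library 2). In the guts labelled EcR RNAi, where 10.8% of genes were called, none of the 8 was called by edgeR's test, with 1 at an unadjusted p under 0.05, nor by DESeq2. That gene was spi again, with 23.8, 30.0, 22.1 and 25.5 CPM in mated and 35.8, 32.5, 26.8 and 33.3 CPM in unmated guts (-0.34 ± 0.12, adjusted p = 0.0824). Ranked by edgeR's p it was at 1404 of 9036 genes tested.

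The response of spi in control guts differed from that in esg-Gal4 whole guts by -0.74 ± 0.19 on the log2 scale (adjusted p = 0.0256), the 1 of the 8 genes called where 8.12% of all genes were, and 4.96% were negative. It was lost in 5 of 16 fits that left out a library, with adjusted p between 0.0522 and 0.0594: without whole gut library 2 mated or 3 unmated, and without control library 2 or 3 mated or 2 unmated. The 2 experiments also differ in driver and count table, and 5 days at 29 °C are stated for the Actin-Gal4 guts only. These, and any difference of sequencing run, cannot be told apart. For sty the mated guts labelled EcR RNAi had 90.7, 82.4, 102 and 119 CPM, against 76.2, 78.9, 73.7 and 74.3 CPM in unmated ones. These groups did not overlap, where 19.3% of all genes tested did not. The fold change was 0.38 with adjusted p = 0.437, and 0.0443 when the 8 libraries of that genotype were fitted alone. In control guts sty spread from 59.8 to 141 CPM in mated and from 59.4 to 142 CPM in unmated libraries, more widely than in any other gut group.

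The other levels in the Actin-Gal4 guts were as follows. Egfr had 40.9 to 50.9 CPM in mated and 43.7 to 51.4 CPM in unmated guts labelled EcR RNAi, and 29.3 to 38.5 CPM in mated and 31.4 to 37.4 CPM in unmated controls. For pnt the ranges were 48.9 to 61.6 CPM in mated and 46.0 to 56.6 CPM in unmated guts labelled EcR RNAi, and 52.7 to 66.8 CPM in mated and 56.1 to 65.2 CPM in unmated controls. Krn spanned 13.7 to 19.9 CPM over these 16 libraries and aos 2.31 to 5.57 CPM. The widest spread was that of vn, at 3.36 to 10.4 CPM, and rho, at 3.72 to 10.6 CPM, both highest in mated control library 1. Of 24 other pathway genes 1 was called with mating in control guts, Sos, the exchange factor of Ras, with 40.7 to 46.2 CPM in mated and 35.1 to 37.9 CPM in unmated controls (0.26, adjusted p = 0.0214). Over all genes tested 6.87% were called with mating in control guts and 10.8% in guts labelled EcR RNAi. In guts labelled EcR RNAi 1 was called, dos, with 15.4 to 17.5 CPM in mated and 16.9 to 26.7 CPM in unmated guts (-0.53, adjusted p = 0.0209).

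Between genotypes the receptor was the gene that passed the test. In unmated females Egfr had 51.4, 48.2, 43.7 and 47.7 CPM in guts labelled EcR RNAi, against 33.0, 31.4, 37.4 and 34.5 CPM in control guts. All 4 libraries with that label were above all 4 controls, and the fold change was 0.49 ± 0.09 (adjusted p = 0.00329), with 0.45 to 0.54 over the 16 fits that left out a library, all called. This was 1 of the 8 genes called, where 15.2% of all genes were, with 7.95% higher, and 1 of 8 with no overlap, where 20.2% had none. In mated females Egfr had 41.5, 50.9, 40.9 and 42.1 CPM in guts labelled EcR RNAi, against 29.3, 36.6, 38.5 and 38.3 CPM in control guts. These groups did not overlap either, where 13.1% of genes did not, but the fold change of 0.30 ± 0.09 missed the threshold (adjusted p = 0.0638), and DESeq2 gave an adjusted p of 0.0352.

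None of the 8 genes was called by edgeR's test between genotypes in mated females, where 8.52% of all genes were, with 2 at an unadjusted p under 0.05 and 1 called by DESeq2. The second was rho, at 4.01, 5.73, 4.00 and 4.27 CPM in guts labelled EcR RNAi and 10.6, 9.21, 5.01 and 3.72 CPM in control guts (-0.67 ± 0.27, adjusted p = 0.154), with -0.88 (adjusted p = 0.0282) without mated control library 4. Ranked by edgeR's p, Egfr was at 891 and rho at 1384 of 9036 genes tested. In unmated females pnt was at -0.27 ± 0.10 (adjusted p = 0.0644), with 46.0 to 56.6 CPM in guts labelled EcR RNAi and 56.1 to 65.2 CPM in control guts. By DESeq2 it had an adjusted p of 0.0453.

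Other cell markers moved with the genotype in unmated females, where 15.2% of all genes tested were called in either direction and 7.95% were higher. The 10 progenitor markers summed to 211 to 260.2 CPM in guts labelled EcR RNAi and 157 to 207 CPM in control guts, with 3 of 10 higher (Sox100B, klu and zfh2). Of 11 visceral muscle markers 6 were lower in guts labelled EcR RNAi, with sums of 1950 to 2632 CPM, against 2734 to 3688 CPM in control guts. Of 9 enterocyte markers 1 was higher and 3 were lower, with sums of 33644 to 41155 CPM in guts labelled EcR RNAi and 34735 to 51844 CPM in control guts. Of 10 enteroendocrine markers 3 were lower, with sums of 380 to 423 CPM in guts labelled EcR RNAi and 458 to 526 CPM in control guts. The part of these markers in the level of Egfr was not tested. Of 24 other pathway genes 5 were higher in unmated guts labelled EcR RNAi and 1 was lower, beside the same shares of all genes. The higher ones were PTP-ER (0.33, adjusted p = 0.00453), cic (0.49, 0.00516), cnk (0.22, 0.0191), Sos (0.22, 0.023) and csw (0.34, 0.0425), and the lower one was Ras85D (-0.22, 0.0111). None of the 24 was called in mated females, where 8.52% of all genes tested were.

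Whether the mating response differed between guts labelled EcR RNAi and control guts was tested with an interaction term, and none of the 8 genes was called, where 0% of all genes tested were. No gene of the 9036 tested was called by edgeR, with 727 at an unadjusted p under 0.05 and 1 gene called by DESeq2. The adjusted p of the 8 genes ran from 0.657 to 0.972, and none of them had an unadjusted p under 0.05. So the call of spi in controls and its absence in guts labelled EcR RNAi were not shown to differ.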

How the data were processed

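RNA was measured by sequencing of polyA-selected libraries made with a directional kit, per the labels' protocols. The deposited files hold counts per gene, for which the submitters' processing notes name DESeq2, HTSeq and STAR and the builds dm6 and BDGP6. No tool version and no strand setting for the counts is given in these sources. The 15 Myo1A samples are not analysed here, since the 8 columns of their file repeat the whole gut columns, and 16 further columns were not used. Entries for transposable elements (501 in the whole gut, 1059 in the progenitor and 594 in the Actin-Gal4 table) were left out.

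Counts were fitted in R 4.3.3 with edgeR 4.0.16, with filterByExpr, TMM scaling and the robust quasi-likelihood F test. The filter kept genes with 15 counts in total that reached, in at least 4 libraries, the CPM of 10 counts at the median library size. Benjamini-Hochberg adjustment ran over all genes tested, which were 9025 in progenitors, 8833 in whole guts and 9036 in Actin-Gal4 guts, with 9448 and 9209 in the joint fits. Genes with an adjusted p under 0.05 were called. The SE is the log2 fold change over the root of F. CPM are counts over the TMM-scaled library size of each table, and per kb divides by the exon union in the BDGP6.54 annotation, whose coordinates are 1-based. All 4 Actin-Gal4 groups shared a fit. Scripts were tested on simulated data. DESeq2 1.42.0, other scalings and filters, a replicate block and leaving out libraries were tried as alternatives.

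The 8 genes and all lists were chosen with earlier results of these data known. Of the other pathway genes, at most 3 called genes per role and comparison were named by smallest adjusted p, with those beyond it in counts of 6 or fewer (Sos, csw) named after their values were seen. Replicate numbers were not taken as pairs, since the labels do not say that they pair libraries. Deviations of same-numbered libraries correlated over 0.1 in 2 of 4 pairs in progenitors, 2 of 4 in whole guts and 11 of 24 in Actin-Gal4 guts. The 24 ran from -0.11 to 0.27 and include pairs across genotypes. Between mated and unmated controls alone they were 0.27, 0.22, 0.07 and 0.12 for replicates 1 to 4, so this check does not settle pairing.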

Additional observations from a re-analysis of the deposited data

Results flagged for a closer look

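In 6 of 64 groups of 4 libraries 1 library lay far from the other 3 by Dixon's test, where chance flags about 1 in 20 groups. In sorted unmated progenitors these were aos at 157 CPM in library 1, with the others at 77.5 to 84.3 CPM, sty at 824 CPM in library 1, with the others at 565 to 604 CPM, and spi at 256 CPM in library 3, with the others at 235 to 237 CPM. In mated guts labelled EcR RNAi they were Egfr at 50.9 CPM in library 2, with the others at 40.9 to 42.1 CPM, and rho at 5.73 CPM in library 2, with the others at 4.00 to 4.27 CPM. In mated Actin-Gal4 control guts it was aos at 3.80 CPM in library 2, with the others at 3.16 to 3.25 CPM.

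The mating response differed between sorted progenitors and whole guts for 3 of the 8 genes, by 1.03 for Egfr, -2.29 for rho and -1.31 for aos on the log2 scale, progenitors minus whole guts, where 21.3% of all genes were called. Leaving out 1 library at a time, rho stayed called in 16 of 16 fits, aos in 7 and Egfr in 4, and without unmated progenitor libraries 1 and 4 none of the 3 did (adjusted p = 0.101, 0.104 and 0.217). Of 25 other pathway genes 5 were called, a share close to that of all genes, by -0.71 for drk, -0.59 for dos, -1.11 for RasGAP1, -1.49 for edl and -0.81 for cic, with adjusted p of 0.0126, 0.0338, 0.00424, 0.0197 and 0.0189 in that order (edgeR's quasi-likelihood test). Of these, RasGAP1 stayed called without those 2 libraries (-0.94, adjusted p = 0.0229). Between Actin-Gal4 control guts and esg-Gal4 whole guts the mating response of spi differed by -0.74.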

How the results depend on the processing

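Egfr, rho, aos and pnt in mated against unmated progenitors, and Egfr in unmated guts labelled EcR RNAi against controls, kept their direction and stayed called under every alternative run. Calls of single genes near the threshold were lost under some settings, beside those lost when libraries were left out. For vn with mating in progenitors these were upper quartile scaling (adjusted p = 0.0506) and no filter (0.0503), and for rho in mated progenitors against whole guts upper quartile scaling (0.0843), no filter (0.0542) and the replicate block (0.0531). For Egfr in the difference between progenitors and whole guts they were the RLE scaling of DESeq2 (0.0535), the stricter filter (0.0532) and the replicate block (0.0598, with 0.0554 for aos). The counts of the 8 genes called changed by over 1.5 times as follows. DESeq2 gave 2 between genotypes in unmated and 1 in mated females (1 and 0 in the reported fits), and upper quartile scaling gave 2 in unmated females. With mating in control guts upper quartile scaling and a fit of those 2 groups alone gave 0 (reported 1), and with mating in guts labelled EcR RNAi a fit of those 2 groups alone gave 1 (reported 0). For the difference between progenitors and whole guts, leaving out unmated progenitor libraries 1 and 4, an alternative chosen after seeing the data, gave 0 (reported 3). With replicate numbers as a block, in place of unpaired groups, this difference gave 1 (rho), and mating in guts labelled EcR RNAi gave 1 (spi, adjusted p = 0.0154); the block changed no other of these counts past 1.5 times.

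Leaving out 1 library at a time gave 4 to 5 called with mating in progenitors, 0 to 1 in whole guts, 0 to 1 in control guts and 0 to 1 in guts labelled EcR RNAi. It gave 1 to 2 between genotypes in unmated and 0 to 1 in mated females and 0 to 0 for the interaction. It gave 1 to 3 for the difference between progenitors and whole guts and 0 to 1 for that between control and whole guts, and for progenitors against whole guts it gave 7 to 8 in the mated groups and 8 to 8 in the unmated groups.

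Over all genes DESeq2 called 678 against edgeR's 376 with mating in whole guts and 1044 against 621 in control guts, and leaving out unmated progenitor libraries 1 and 4 left 1302 of 3627. Upper quartile scaling moved the split of calls to 143 higher and 221 lower (reported 197 and 179) in whole guts and to 727 and 400 (reported 485 and 489) with mating in guts labelled EcR RNAi; it moved the median of all genes between mated progenitors and whole guts to 0.23 on the log2 scale (reported 0.10). Of 88 combinations of gene and comparison, 52 were never called and had an unadjusted p of 0.05 or more, and no direction is given for them. Depth limits vn, rho and aos in whole guts, with 7 to 129 counts per library.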

Other observations

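For each of the 8 genes, the genes most like it across libraries were taken from 8056 genes by the mean of the Pearson correlations of log2 CPM over the 8 progenitor, 8 whole gut and 16 Actin-Gal4 libraries. Libraries within each table differ in mating and depth, and those of the Actin-Gal4 table also in genotype. The part of these differences in the correlations was not tested. The closest was hdly for rho (mean r = 0.92), followed by CG13506 (0.84). For vn they were asRNA:CR44976 (0.89) and the insulin receptor gene InR (0.88), for Egfr pain (0.88) and D19A (0.88), and for spi CG42554 (0.88) and unk (0.86). The outputs had lower values, with CG34386 (0.81) and CG17660 (0.80) for pnt, wun2 (0.80) and Frl (0.77) for aos, and CanB2 (0.79) and bmm (0.79) for sty. Krn had the lowest, with CG32638 (0.76) and Ubc6 (0.75).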
